A study of Mus musculus with 20 samples.

Results

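Cultured mouse articular chondrocytes, the cells that make and keep up the cartilage of joints, were compared after 48 h with 20 µM 25-hydroxycholesterol (25HC) and after 48 h with the solvent DMSO alone (Vehicle). All libraries labelled 25HC or Vehicle were taken, 5 of each, which is 10 of the 20 libraries in the series, and every expressed gene was considered. The remaining 10 libraries were 5 of 25-hydroxycholesterol-3-sulfate (25HC3S, 20 µM, 48 h) and 5 of GW3965 (2 µM, 48 h). The cells of all groups came from mice 6 weeks of age. The labels name no strain or sex and do not say whether replicates are separate animals or cultures. The p-values therefore reflect only how far these libraries differ among themselves, which may be technical. The comparison asks what the free oxysterol does to gene expression in these cells.

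25HC is an oxidised form of cholesterol made by the enzyme cholesterol 25-hydroxylase, which is encoded by Ch25h. Cells sense their sterols mainly through SREBP2 and the liver X receptors (LXR). SREBP2, the product of Srebf2, is a membrane-bound transcription factor that travels from the endoplasmic reticulum to the Golgi with its escort SCAP when sterols are low, is cleaved there, and then switches on genes of cholesterol synthesis and uptake. INSIG proteins hold SCAP back when sterols are high, and oxysterols such as 25HC are known to bind INSIG. LXR are nuclear receptors that oxysterols activate and that switch on genes of cholesterol export such as Abca1 and Abcg1. GW3965 is a synthetic LXR agonist.

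Expression was read as FPKM, fragments per kilobase of gene per unit of library depth, a level that is scaled to gene length and library depth. Differences are 25HC minus Vehicle on the log2(FPKM + 1) scale, which understates changes of low genes, and are given with their standard error (SE). They were tested two-sided with limma over all 20 libraries for the 12752 genes with at least 1 FPKM in at least 5 libraries. P was adjusted over all genes by the Benjamini-Hochberg method, and genes with an adjusted p below 0.05 are those called.

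The Vehicle group was uneven. Libraries held 14653777 to 19365220 fragments in genes, but only 915, 237 and 316 genes had exactly 1 fragment in Vehicle replicates 2, 3 and 4, against 1808 to 2014 in Vehicle replicates 1 and 5 and all 25HC libraries. Mitochondrial genes took 0.369%, 4.07% and 3.60% of fragments in those 3 libraries and 0.889% to 1.37% in the other 7. Over the genes tested, the median SD of log2(FPKM + 1) was 0.085 among the 5 25HC libraries, 0.32 among the 5 Vehicle libraries and 0.058 between Vehicle replicates 1 and 5. A 25HC3S library, replicate 1, had 1171 genes at 1 fragment and shares in the estimate of the spread. The differences from Vehicle are therefore given over all libraries and without Vehicle replicates 2, 3 and 4, where 2 Vehicle libraries remain.

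Few genes passed the test between 25HC and Vehicle. Over all 20 libraries 4 genes rose, 0.0314% of those tested, among them Sqle, the squalene epoxidase of cholesterol synthesis, Srebf2 and Tmem246, a membrane protein that acts on GPI anchors. A single gene fell, the cholesterol exporter Abca1, which is 0.00784% of those tested. Without Vehicle replicates 2, 3 and 4, limma called 0 genes at an adjusted p under 0.05, while 140 higher (1.1%) and 139 lower (1.09%) had an unadjusted p under 0.05. Over all libraries 2054 genes (16.1%) were higher and 1809 (14.2%) lower at that unadjusted p. In the fit without the 3 libraries Sqle, Srebf2, Tmem246 and Abca1 kept their direction, with adjusted p of 0.35 for the first 3 and 0.88 for Abca1.

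In the coordinates of the deposited table, of whose genes 98.33% have the same position in GENCODE M21, these genes lie at chr15:59315077-59331192 (Sqle), chr15:82147181-82205379 (Srebf2), chr4:49584506-49597876 (Tmem246) and chr4:53030787-53159895 (Abca1). Sqle carries out the first oxygen-dependent step of cholesterol synthesis. It had 11.1, 11.4, 10.2, 12.3 and 12.9 FPKM in the Vehicle replicates and 14.9, 15.6, 17.9, 16.5 and 15.7 FPKM with 25HC, so every 25HC library lay above every Vehicle library. The log2 difference was 0.44 ± 0.07 (SE; limma adjusted p 0.015), and 0.39 ± 0.08 without the 3 libraries. The levels of Srebf2 were 21.6, 19.7, 22.8, 20.7 and 21.7 FPKM in Vehicle and 25.3, 25.7, 27.9, 27.5 and 27.5 FPKM with 25HC. The groups did not overlap, and the difference was 0.32 ± 0.06 (adjusted p 0.049), or 0.29 ± 0.06 without the 3 libraries. Srebf2 was the call nearest the threshold.

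Tmem246 was low throughout, at 3.43, 2.88, 2.34, 2.92 and 2.84 FPKM in Vehicle and 4.53, 4.56, 4.70, 4.09 and 3.87 FPKM with 25HC. The groups were apart, and the difference was 0.47 ± 0.07 (adjusted p 0.015), or 0.37 ± 0.08 without the 3 libraries. Abca1 moved the other way, with 8.53, 11.3, 13.8, 14.0 and 8.60 FPKM in Vehicle against 5.50, 5.70, 5.89, 6.76 and 5.97 FPKM with 25HC. All 25HC libraries lay below all Vehicle libraries. The difference was -0.79 ± 0.13 (adjusted p 0.024), and it shrank to -0.46 ± 0.12 without Vehicle replicates 2, 3 and 4, the 3 libraries in which Abca1 was highest.

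**Figure D1:**
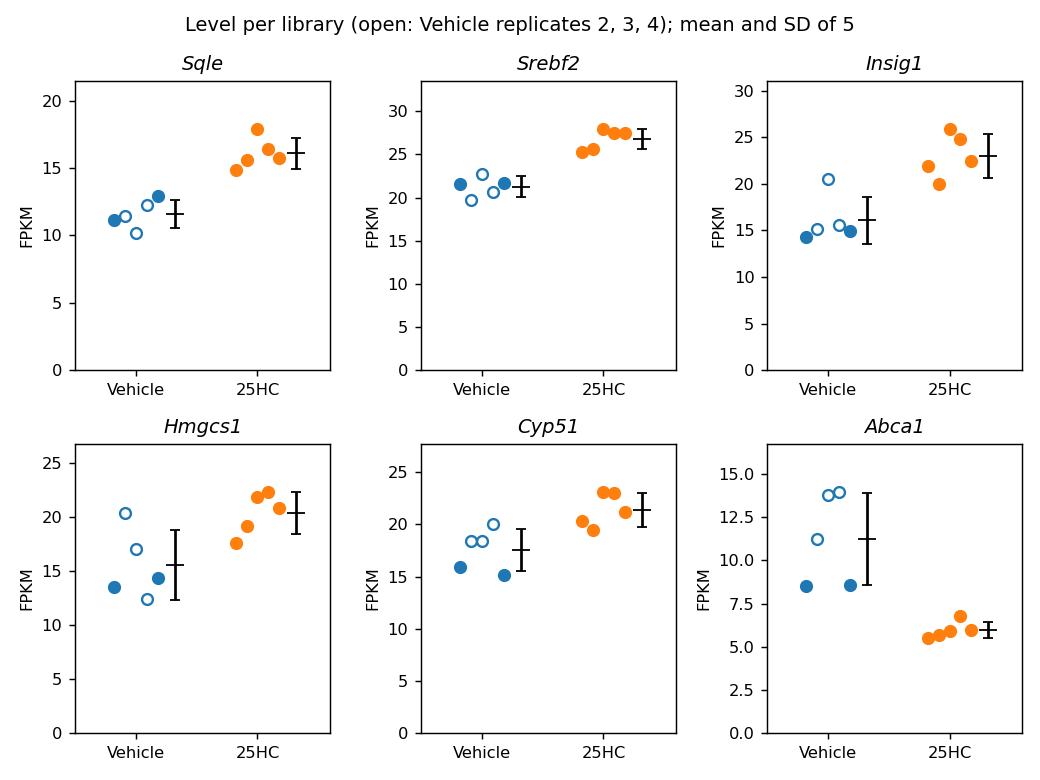
Level in FPKM of 6 sterol genes in each Vehicle and 25HC library, from 0, with open points for Vehicle replicates 2, 3 and 4 and bars for the mean and SD of 5 libraries. Sqle and Srebf2 are higher with 25HC and Abca1 is lower without overlap, while for Insig1, Hmgcs1 and Cyp51 an open Vehicle point reaches into the 25HC range.

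Non-overlap by itself was common: 180 genes (1.41% of those tested) lay higher in all 5 25HC libraries and 117 (0.918%) lower. Of these, 31 (0.243% of those tested) and 21 (0.165%) had an unadjusted p under 0.05 in both fits. The calls also depended on single Vehicle libraries. Leaving out Vehicle replicate 1 gave 1445 genes called higher and 1214 lower, and leaving out replicate 5 gave 1148 and 937, with the Vehicle mean then set mainly by replicates 2, 3 and 4.

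A fit that weights each library by its own spread (limma array weights) gave Vehicle replicates 2, 3 and 4 weights of 0.159, 0.0436 and 0.0512, against 1.51 to 2.66 for the other 7 libraries of the comparison. It called 12 genes higher (0.0941%) and 4 lower (0.0314%), which include all genes called over 20 libraries with equal weights. Further genes called higher were Hmgcs1, Cyp51 and Hsd17b7 of cholesterol synthesis, Insig1, the fatty acid genes Scd2 and Fasn, Mmab, an enzyme of cobalamin metabolism that lies head to head with the mevalonate kinase gene, and Ibsp, which encodes bone sialoprotein. Igfbp5 and Gm32618 were among those called lower beside Abca1. Fasn, Mmab, Hsd17b7 and Gm32618 are named after their values were seen. With 25HC3S replicate 1 also left out, so that 16 libraries remained, Hmgcs1 and Insig1 were called higher (0.0157%) and Abca1 lower (0.00784%).

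**Figure D2:**
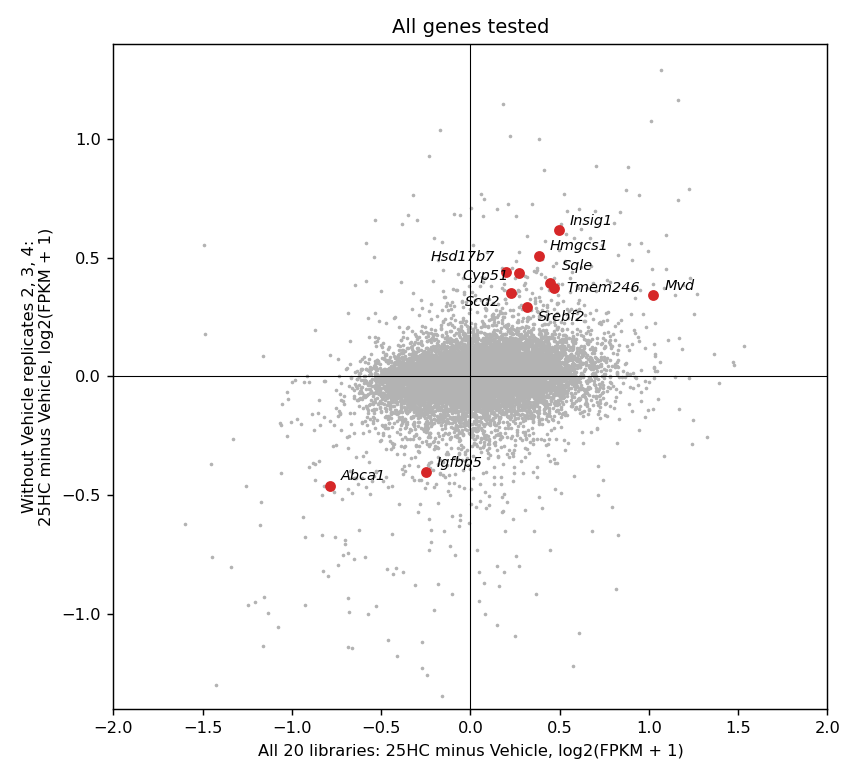
Difference between 25HC and Vehicle on the log2(FPKM + 1) scale for each gene tested, over all 20 libraries on the horizontal axis and without Vehicle replicates 2, 3 and 4 on the vertical axis; 4 genes lie outside the axes. Red points are genes named in the text: Sqle, Srebf2, Insig1, Hmgcs1 and Cyp51 sit above 0 on both axes and Abca1 at -0.79 and -0.46 sits below 0 on both.

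Promoters of Srebf2, Hmgcs1, Insig1 and Abca1 are shown because SREBP and LXR are known to act through sites near the start of such genes. Of the 20 cholesterol enzymes on the lists, 15 had an entry among the promoter sequences of RefSeq on build GRCm38.p6, and Sqle was not among them. Each sequence is read 5′ to 3′ on the gene's own strand, and was trimmed to end before both the RefSeq start and the gene start of the deposited table. Capitals mark TCACCCCA, a core letter run of sterol regulatory elements, CCAAT, the box of the factor NF-Y (ATTGG on the opposite strand), and GGTTA followed by any 4 bases and CGGTCA, the letters of an LXR element. Both strands were searched, and no marked runs overlap. The first and the last of these patterns were chosen with the sequences below in view, so their presence in Srebf2, Hmgcs1 and Abca1 is by construction.
Srebf2 (chr15:82147019-82147180, + strand): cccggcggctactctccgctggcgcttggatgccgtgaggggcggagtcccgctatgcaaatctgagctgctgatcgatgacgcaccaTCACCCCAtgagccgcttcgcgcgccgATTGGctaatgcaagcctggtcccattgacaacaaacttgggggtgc
Hmgcs1 (chr13:119690101-119690350, + strand): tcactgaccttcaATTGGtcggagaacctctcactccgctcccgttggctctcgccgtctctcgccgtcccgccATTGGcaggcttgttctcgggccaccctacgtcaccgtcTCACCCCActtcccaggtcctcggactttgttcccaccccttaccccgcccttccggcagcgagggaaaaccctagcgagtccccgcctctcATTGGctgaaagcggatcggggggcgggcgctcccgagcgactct
Insig1 (chr5:28071162-28071362, + strand): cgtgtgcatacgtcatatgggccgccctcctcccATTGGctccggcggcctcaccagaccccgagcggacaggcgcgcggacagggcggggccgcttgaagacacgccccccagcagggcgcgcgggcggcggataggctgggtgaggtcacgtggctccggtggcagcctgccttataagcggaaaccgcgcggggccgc
Abca1 (chr4:53159896-53160145, - strand): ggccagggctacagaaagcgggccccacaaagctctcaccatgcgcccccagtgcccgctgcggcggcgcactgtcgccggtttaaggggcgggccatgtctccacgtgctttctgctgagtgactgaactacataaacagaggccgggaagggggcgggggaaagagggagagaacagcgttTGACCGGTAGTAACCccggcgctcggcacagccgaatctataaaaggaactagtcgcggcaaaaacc

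Over windows from 250 bases before to 50 after the start, TCACCCCA was found for 477 of 27025 genes (1.77%), and among the 15 cholesterol enzymes for Hmgcs1 alone. CCAAT was found for 14 of the 15 enzymes and for 41.1% of all genes. The LXR pattern occurred in 4 of the 27025 genes, 2 of which, Abca1 and Srebf1, are among the 11 listed LXR targets with an entry. Because TCACCCCA and the LXR pattern were chosen with Hmgcs1 and Abca1 in view, their counts cannot show that either list is richer in them. A match is a run of letters and no measured binding.

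The steps of cholesterol synthesis were followed in pathway order, in the mevalonate arm that ends in squalene and in the sterol arm from squalene to cholesterol. Of 8 tested genes of the mevalonate arm none was called over all 20 libraries, 7 had a positive difference against 53.4% of all genes, and the median difference was 0.40 against 0.025 over all genes. Without Vehicle replicates 2, 3 and 4 all 8 were positive against 51.4% of all genes, and the median was 0.28 against 0.0024. Of 11 genes of the sterol arm, 1, Sqle, was called higher over all libraries, against 0.0314% of all genes. In this arm 10 were positive in each fit, and the median was 0.25 in both.

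Hmgcs1, which makes HMG-CoA from acetyl groups, had 13.6, 20.4, 17.1, 12.4 and 14.4 FPKM in Vehicle and 17.6, 19.2, 21.9, 22.3 and 20.8 FPKM with 25HC. Vehicle replicate 2 overlapped the 25HC libraries, and Vehicle replicates 1 and 5 lay below all of them. The difference was 0.38 ± 0.10 (adjusted p 0.15), and 0.51 ± 0.08 without the 3 libraries (adjusted p 0.17), where Hmgcs1 had the lowest unadjusted p of all genes, 1.4e-05. Mvd, the mevalonate decarboxylase, shows how far single Vehicle libraries could go: 5.59, 5.60, 0.468, 3.36 and 7.91 FPKM, against 7.27 to 9.67 FPKM with 25HC. Its difference was 1.02 ± 0.31 over all libraries and 0.34 ± 0.16 without the 3. Idi1, an isomerase of the arm, changed sign, from -0.04 ± 0.14 to 0.25 ± 0.14, and was not called in either fit.

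Cyp51, the lanosterol demethylase, had 15.9, 18.4, 18.4, 20.1 and 15.2 FPKM in Vehicle and 20.3, 19.5, 23.1, 23.0 and 21.2 FPKM with 25HC. Vehicle replicate 4 reached into the 25HC range and replicates 1 and 5 were the lowest. Its difference was 0.27 ± 0.08 over all libraries and 0.44 ± 0.08 without the 3, with adjusted p of 0.15 and 0.25. Dhcr7, which makes cholesterol in the last step of a branch of the sterol arm, did not overlap between groups: 2.50 to 3.19 FPKM in Vehicle against 3.46 to 4.34 FPKM with 25HC, a difference of 0.33 ± 0.07 (adjusted p 0.15), or 0.25 ± 0.09 without the 3 libraries (adjusted p 1). Msmo1, a sterol methyl oxidase, differed by 0.07 ± 0.13 over all libraries and 0.40 ± 0.13 without the 3. Hsd17b7, a sterol ketone reductase, differed by 0.20 ± 0.12 and 0.44 ± 0.10, and Lss, which closes the sterol rings, by 0.14 ± 0.07 and 0.06 ± 0.07.

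**Figure D3:**
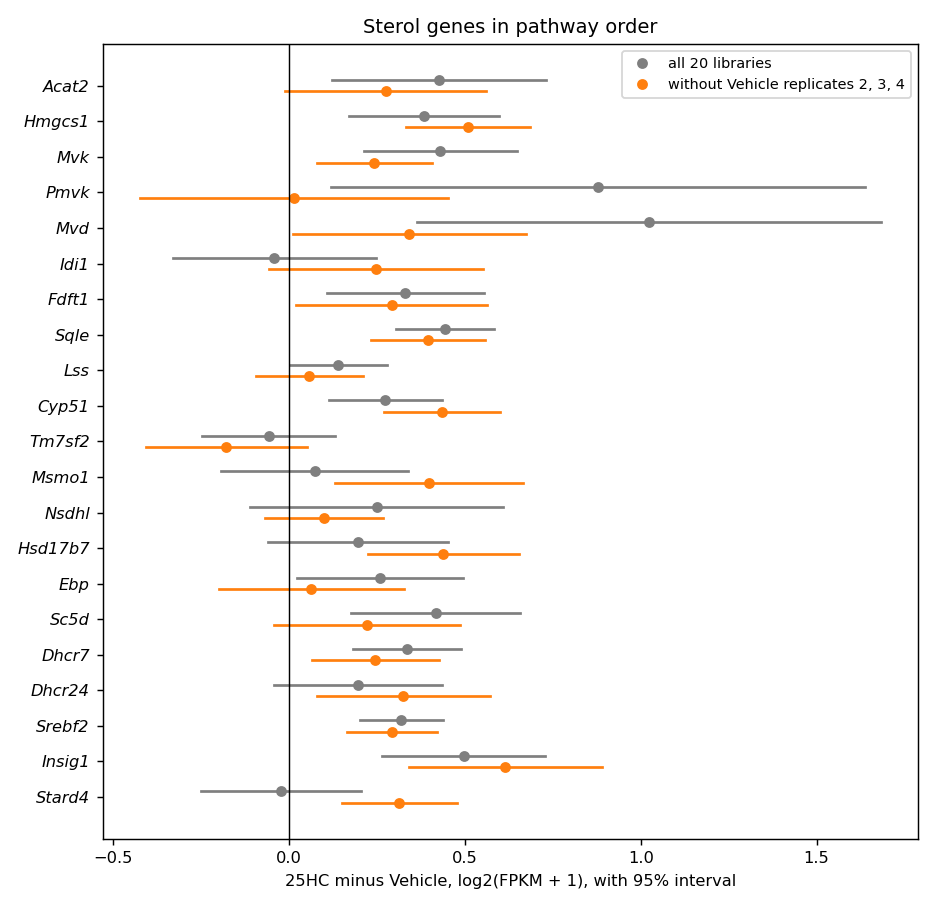
Differences between 25HC and Vehicle on the log2(FPKM + 1) scale with 95% intervals for enzymes of cholesterol synthesis in pathway order and for Srebf2, Insig1 and Stard4, over all 20 libraries (grey) and without Vehicle replicates 2, 3 and 4 (orange). Most points lie to the right of 0 in both fits, with Insig1 farthest right of the orange points, at 0.61.

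Among 13 tested genes of SREBP control and sterol uptake, 2 rose over all libraries, Srebf2 among them, against 0.0314% of all genes. In each fit 10 were positive, against 53.4% and 51.4% of all genes. The others were negative, down to -0.35 over all libraries and -0.57 without the 3, and array weights called 1 member lower. The medians were 0.11 and 0.063, against 0.025 and 0.0024 over all genes. Insig1, which retains SCAP in the endoplasmic reticulum and is itself an SREBP target, had 14.3, 15.1, 20.5, 15.6 and 14.9 FPKM in Vehicle and 21.9, 20.0, 25.9, 24.8 and 22.4 FPKM with 25HC. A single Vehicle library, replicate 3, reached into the 25HC range. The difference was 0.50 ± 0.11 (adjusted p 0.15), and 0.61 ± 0.13 without the 3 libraries (adjusted p 0.35).

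Insig2 and Scap are given for their roles, chosen after their values were seen. Insig2, the other INSIG gene, differed by 0.02 ± 0.08 and 0.06 ± 0.06, and Scap, the SREBP escort, by 0.11 ± 0.06 and 0.05 ± 0.07. Stard4, a sterol carrier, went from -0.02 ± 0.11 to 0.31 ± 0.08.

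Of 11 tested LXR target genes none rose and 1, Abca1, fell over all libraries, against 0.00784% of all genes. Their median difference was 0.017 over all libraries and -0.049 without Vehicle replicates 2, 3 and 4, against 0.025 and 0.0024 over all genes. Of the 11, 6 and 3 were positive, against 53.4% and 51.4% of all genes. Abcg1, a second exporter of cholesterol, had 1.83, 1.36, 1.94, 2.48 and 1.79 FPKM in Vehicle and 1.39, 1.28, 1.56, 1.59 and 1.47 FPKM with 25HC. The ranges overlapped, and the difference was -0.22 ± 0.12 (adjusted p 0.21), or -0.19 ± 0.15.

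Srebf1, which encodes the SREBP of fatty acid synthesis, had 25.1, 24.4, 15.0, 16.4 and 24.7 FPKM in Vehicle and 25.6 to 27.7 FPKM with 25HC. Its difference of 0.35 ± 0.12 fell to 0.09 ± 0.07 once the 3 libraries were left out. Mylip, a ubiquitin ligase, differed by -0.21 ± 0.06 and -0.10 ± 0.06, and Lpcat3, a phospholipid enzyme, by 0.09 ± 0.10 and 0.01 ± 0.06. None of these 4 genes was called in either fit. The 95% interval of the difference without the 3 libraries was -0.51 to 0.12 for Abcg1, -0.07 to 0.24 for Srebf1 and -0.12 to 0.15 for Lpcat3.

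Of 11 tested genes that make, break down or sense oxysterols none was called. Over all libraries only 0.0314% of all genes were called higher and 0.00784% lower, so this does not set them apart. Ch25h itself had 11.4, 4.68, 4.36, 3.12 and 9.23 FPKM in Vehicle and 7.28, 6.53, 7.31, 7.51 and 8.93 FPKM with 25HC. All 25HC libraries lay above Vehicle replicates 2, 3 and 4 and below replicates 1 and 5. The difference therefore changed sign, from 0.29 ± 0.24 to -0.41 ± 0.19. Cyp7b1, which hydroxylates 25HC, differed by -0.45 ± 0.18 and -0.07 ± 0.14.

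Of 17 tested genes of fatty acid synthesis and desaturation none was called in either fit, against 0.0314% of all genes higher and 0.00784% lower over all libraries. Positive were 10 and 14, against 53.4% and 51.4% of all genes. The medians were 0.071 and 0.081, against 0.025 and 0.0024 over all genes. Scd2, a stearoyl-CoA desaturase, had 88.0, 93.7, 112, 103 and 90.8 FPKM in Vehicle and 107, 112, 122, 120 and 111 FPKM with 25HC. Its difference was 0.23 ± 0.07 and, without the 3 libraries, 0.35 ± 0.07 (adjusted p 0.35). Scd1, the other desaturase of this kind in the list, differed by -0.47 ± 0.17 and -0.17 ± 0.14, and Vehicle replicates 3 and 4 held its highest levels, 99.1 and 106 FPKM. Fragments that fit both Scd genes could be split between them by the counting, which was not tested. Fasn, the fatty acid synthase, differed by 0.08 ± 0.09 and 0.29 ± 0.08.

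The cells expressed cartilage genes in both groups. All 10 markers used to define chondrocytes were tested, and their summed level was 1648 to 5014 FPKM in Vehicle and 3638 to 3994 FPKM with 25HC. Macrophage RNA was present as well: 17 of 18 macrophage markers were tested, with a summed level of 571 to 1211 FPKM in Vehicle and 848 to 1205 FPKM with 25HC. Of the other marker lists, 8 of 12 genes of osteoblasts and osteocytes, 9 of 13 of synovial lining and tendon, 7 of 11 of adipocytes, 5 of 10 of osteoclasts, 4 of 12 of endothelium and 3 of 13 of skeletal muscle were tested. None of the 14 markers of erythroid cells and neutrophils was, and their summed level reached 1.18 FPKM at most. In such bulk samples fewer cells of a type and less RNA per cell cannot be told apart, and the part of these cells in the results was not tested.

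Cartilage collagens differed less without Vehicle replicates 2, 3 and 4, while Acan and Sox9 differed about as much. Col2a1, the main collagen of cartilage, had 2085, 3501, 1059, 1090 and 2053 FPKM in Vehicle and 2430, 2371, 2129, 2426 and 2160 FPKM with 25HC. Vehicle libraries thus lay on both sides of a narrow 25HC range. The difference was 0.38 ± 0.23 and 0.15 ± 0.13. The 7 cartilage collagens had a median of 0.54 over all libraries and 0.13 without the 3, and none was called in either fit. Acan, the large proteoglycan of cartilage, differed by 0.20 ± 0.09 and 0.18 ± 0.10, and Sox9, the transcription factor of chondrocytes, by 0.20 ± 0.08 and 0.21 ± 0.08, with adjusted p of 0.15 in the first fit. Of 22 tested matrix proteases and inhibitors none was called. Over all libraries only 0.0314% of all genes were called higher and 0.00784% lower, so this sets neither them nor the collagens apart. Mmp13, the collagenase, differed by 0.19 ± 0.08 and 0.15 ± 0.10. Mmp3, stromelysin, differed by -0.29 ± 0.19 and -0.44 ± 0.25, and Adamts5, an aggrecanase, by -0.33 ± 0.17 and 0.03 ± 0.15.

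Genes of bone and growth signalling are given next, none of which was called in either fit. Ibsp had 74.4, 79.9, 61.7, 73.7 and 78.0 FPKM in Vehicle and 88.7 to 99.1 FPKM with 25HC, without overlap. Its difference was 0.36 ± 0.08 and 0.31 ± 0.08, with adjusted p of 0.15 and 0.93. Pth1r, the receptor of parathyroid hormone, ran from 24.7 to 35.3 FPKM in Vehicle and from 37.8 to 43.1 FPKM with 25HC, with differences of 0.47 ± 0.09 and 0.23 ± 0.09. Igfbp5, an IGF binding protein, had 47.3, 32.6, 43.5, 47.1 and 50.2 FPKM in Vehicle and 33.5 to 41.7 FPKM with 25HC. Vehicle replicate 2 fell below that range, and the difference was -0.25 ± 0.10 and -0.40 ± 0.09 (adjusted p 0.15 and 0.49). Lgr5, a receptor of the Wnt pathway, and Egr1, an immediate early gene, differed by -0.46 ± 0.12 and -0.32 ± 0.13 over all libraries and by -0.25 ± 0.10 and -0.44 ± 0.12 without the 3.

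Of 36 gene lists with a tested member, 31 had a median nearer to 0 without Vehicle replicates 2, 3 and 4 than over all libraries. The integrated stress response went from 0.43 to 0.047 over 23 genes, immediate early genes from 0.37 to -0.032 over 16 and macrophage markers from 0.20 to -0.064 over 17. Mitochondrially encoded genes went from -0.45 to -0.15 over 12. Inflammatory mediators had 0.17 and -0.085 over 18 genes, and interferon-stimulated genes 0.055 and -0.11 over 18. The unfolded protein response had -0.079 and 0.061 over 21 genes, and DNA replication and mitosis 0.074 and -0.022 over 35. No gene of these 8 lists was called in either fit, against 0.0314% of all genes higher and 0.00784% lower over all libraries. Cebpb, a transcription factor, is given as an example chosen after its values were seen: 41.1, 47.9, 7.25, 6.37 and 37.3 FPKM in Vehicle against 41.1 to 46.3 FPKM with 25HC. Mki67, a marker of dividing cells, had 42.96 and 42.91 FPKM in Vehicle replicates 3 and 4 and 13.9 to 18.4 FPKM in the other 8 libraries. Prg4, the lubricating protein of the cartilage surface, differed by 0.45 ± 0.15 over all libraries and 0.03 ± 0.14 without the 3, and Mrc1, a macrophage receptor, by -0.28 ± 0.13 and -0.10 ± 0.14.

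**Figure D4:**
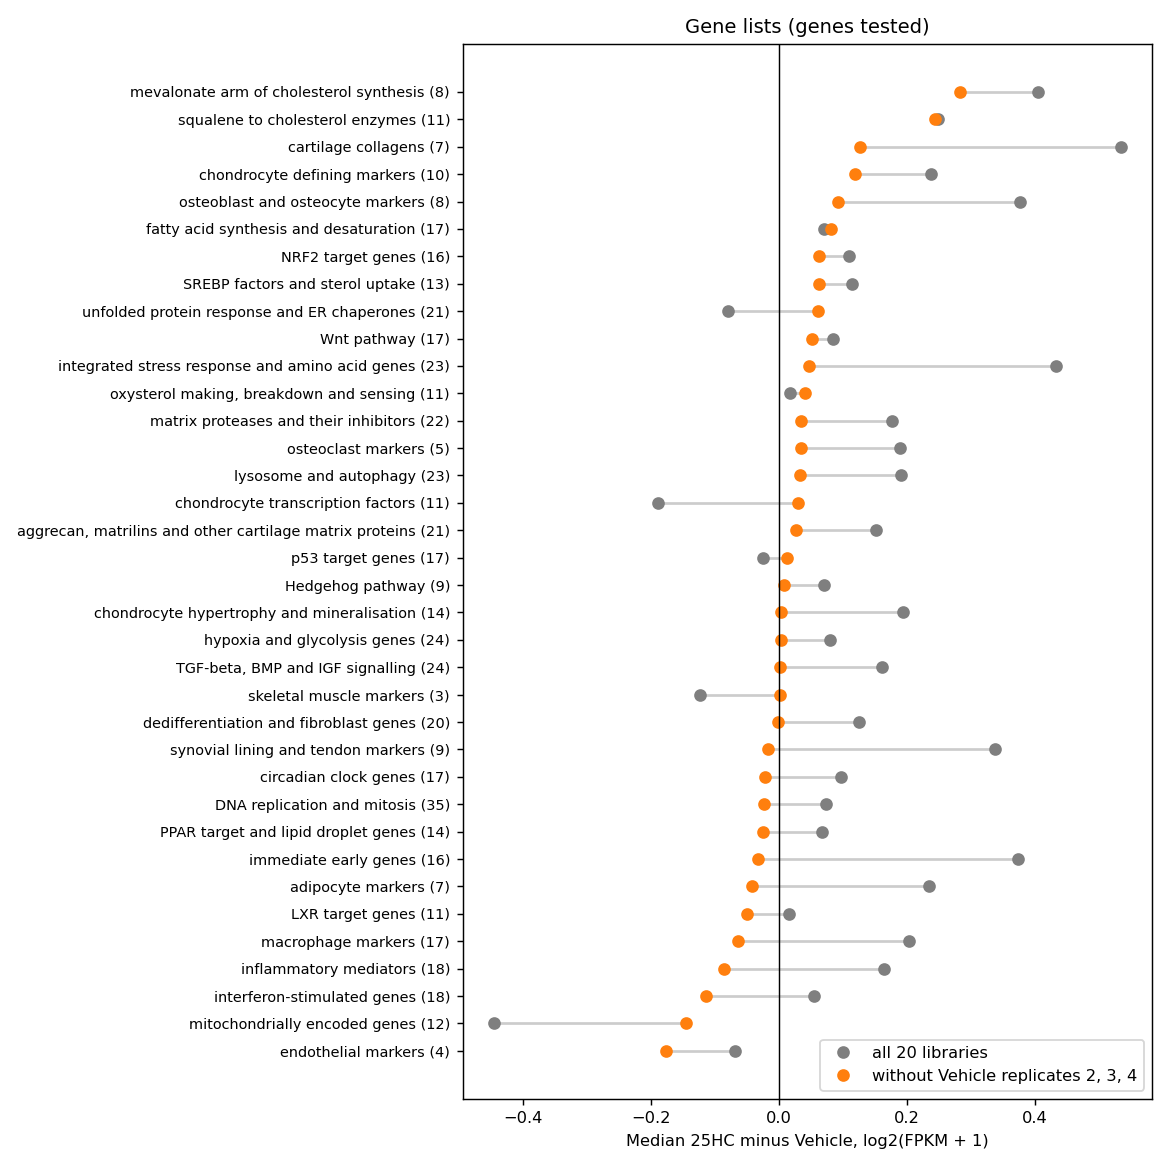
Median difference between 25HC and Vehicle on the log2(FPKM + 1) scale for each gene list with at least 3 tested genes, over all 20 libraries (grey) and without Vehicle replicates 2, 3 and 4 (orange), with the number of tested genes in brackets. Cartilage collagens are highest over all libraries, at 0.54, and the 2 cholesterol synthesis lists are highest without the 3 libraries, at 0.28 and 0.25.

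Beyond these lists, further genes lay apart in all 10 libraries with an unadjusted p under 0.05 in both fits. Higher with 25HC were Polr2j, a subunit of RNA polymerase II, at 12.8, 2.13, 6.66, 5.89 and 10.3 FPKM in Vehicle and 13.4 to 16.4 FPKM with 25HC, and Cdc42ep5, an effector of CDC42, at 0.468 to 4.34 FPKM and 4.64 to 5.78 FPKM. Their differences were 1.08 ± 0.27 and 0.90 ± 0.22 over all libraries and 0.37 ± 0.17 and 0.37 ± 0.12 without the 3. Gm11249, Tmem42, Klc3 and Eef1akmt4 differed by 0.31 to 0.36 in the latter fit. Lower were Gm19366, AC121151.1, Gm4459, Gm7335, Gm38372, Rpl6l, Gm1976, 2310043P16Rik and Nrep, by -1.14 to -0.29 without the 3 libraries. Of these only Nrep is annotated as protein coding. AC121151.1, Gm4459, Gm7335, Rpl6l and, among the higher genes, Gm11249 are processed pseudogenes. Gm19366 was listed at 0 in all 5 25HC libraries and at 0.445 to 3.43 FPKM in Vehicle. It is a pseudogene of 156 bases, so these levels rest on few fragments. Values of 0 also occurred in 25HC3S and GW3965 libraries. Rpl6l is a close copy of a ribosomal protein gene, and its fragments could be shared with that gene. All of these had an adjusted p of 0.15 over all libraries. For each of them the means of 25HC3S and GW3965 also lay on the 25HC side of the mean of the 5 Vehicle libraries. Means in Vehicle, 25HC, 25HC3S and GW3965 were 7.55, 15.2, 12.6 and 14.7 FPKM for Polr2j. For Nrep they were 5.76, 4.47, 3.41 and 3.83 FPKM. These differences are thus not particular to 25HC.

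The sulfate 25HC3S, which carries a sulfate group on the 3 position of the same sterol, was given at the same dose for the same time. Of 12752 genes 84 (0.659%) were higher with 25HC than with 25HC3S and 20 (0.157%) lower. With Vehicle replicates 2, 3 and 4 out of the estimate of the spread these were 384 (3.01%) and 149 (1.17%). Hmgcs1, Cyp51, Sqle, Insig1 and Srebf2 were among those higher. So was the macrophage receptor gene Mrc1, by 1.52 ± 0.13 (limma adjusted p 5.5e-07 over all 20 libraries). Hmgcs1 had 7.28 to 8.18 FPKM with 25HC3S, all below the 25HC libraries, a difference of 1.26 ± 0.10 (adjusted p 3e-07), and Cyp51 8.01 to 9.74 FPKM, a difference of 1.17 ± 0.08 (adjusted p 2.1e-08). Sqle differed by 1.15 ± 0.07, Insig1 by 1.41 ± 0.11 and Srebf2 by 0.65 ± 0.06. For each of these genes the 25HC3S mean lay below the Vehicle mean, so the differences do not reflect 25HC alone. Means in Vehicle, 25HC and 25HC3S were 15.6, 20.4 and 7.87 FPKM for Hmgcs1 and 17.6, 21.4 and 8.98 FPKM for Cyp51. They were 16.1, 23.0 and 8.12 FPKM for Insig1, and 25.2, 20.5 and 6.40 FPKM for Mrc1.

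The exporters went the other way. Abca1 had 13.1, 9.42, 8.81, 7.91 and 8.55 FPKM with 25HC3S, all above the 25HC libraries, and 25HC minus 25HC3S was -0.58 ± 0.13 (adjusted p 0.037). Abcg1 had 4.75, 2.60, 3.26, 2.31 and 2.42 FPKM with 25HC3S, a difference of -0.70 ± 0.12 (adjusted p 0.0054). The highest value of both was in 25HC3S replicate 1. Srebf1, Mylip and Lpcat3 differed by 0.30 ± 0.12, -0.14 ± 0.06 and -0.07 ± 0.10 and were not called in that fit, with adjusted p of 0.48, 0.57 and 0.86. With Vehicle replicates 2, 3 and 4 out of the estimate of the spread Srebf1 was higher with 25HC (SE 0.056, adjusted p 0.0051), while Mylip and Lpcat3 had adjusted p of 0.089 and 0.39.

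GW3965 was given at 2 µM and not at 20 µM, so its levels are set beside those of 25HC without a test. Abca1 had 5.96 ± 0.482 FPKM (SD, n = 5) with 25HC and 111 ± 2.10 FPKM with GW3965, Abcg1 1.46 ± 0.127 and 35.4 ± 1.61 FPKM, and Srebf1 26.5 ± 0.881 and 159 ± 10.3 FPKM. Of the genes that SREBP2 acts on, Sqle had 16.1 ± 1.15 FPKM with 25HC and 22.1 ± 0.680 FPKM with GW3965, and Insig1 23.0 ± 2.35 and 61.7 ± 3.53 FPKM.

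**Figure D5:**
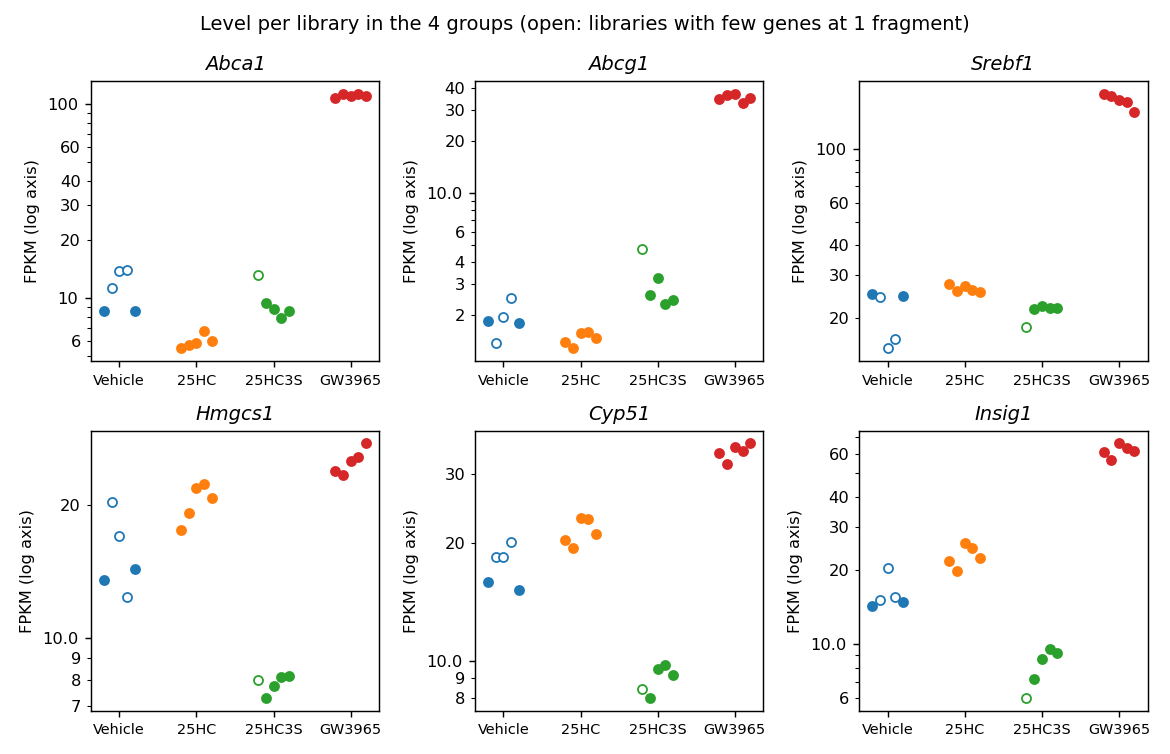
Level in FPKM on a log axis of 3 LXR targets and 3 SREBP2 targets in all 20 libraries, with open points for Vehicle replicates 2, 3 and 4 and 25HC3S replicate 1. Abca1 and Abcg1 have their lowest means with 25HC and are at 111 and 35.4 FPKM on average with GW3965, while Hmgcs1, Cyp51 and Insig1 are lowest with 25HC3S.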

How the data were processed

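RNA was extracted with Trizol and made into libraries with a fast RNA-seq kit, per the labels' protocols. CASAVA 1.8 and HISAT2 2.0.5 were used, per the submitters' processing notes. Which program counted fragments, whether by strand, and on which build is not given in the sources used here. The authors deposited 1 table of FPKM for 54532 genes. Of its gene identifiers, 99.93% were in GENCODE M21.

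Fragments per library were recovered from FPKM times gene length, whole within 0.02 for 100% of values. FPKM are not counts, so limma 3.58.1 in R 4.3.3 was run on log2(FPKM + 1) with a trend and 1 mean per group over 20 libraries, with a filter of 1 FPKM in at least 5 libraries. The method was tested on simulated data whose spread came from 25HC and GW3965 libraries, which does not cover the wider spread of the Vehicle group. Intervals are 95% intervals. Depth covers counting error only.

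Alternatives were other sets of libraries, array weights, a pseudocount of 0.1, other filters, median ratio scaling, robust moderation, a replicate block and leaving out each library. Genes named were those called, up to 10 per direction that did not overlap and had p under 0.05 in both fits, a set of sterol and cartilage genes, and up to 2 per list. The members, gene lists and this rule were chosen with earlier results of these data known. 1 gene was removed from the oxysterol list as misplaced before any fit was run. Some genes are not reported here.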

Additional observations from a re-analysis of the deposited data

Results flagged for a closer look

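Of 128 groups of 5 values examined, over the named genes and library measures, 12 held a value far from the other 4, and chance flags about 1 in 20 groups. In Vehicle replicate 4 these were Tmem42 at 0 FPKM (others 2.01 to 2.30), AC121151.1 at 22.2 (3.77 to 4.95), Gm4459 at 16.5 (6.37 to 7.44) and Rpl6l at 63.0 (16.3 to 26.4). In Vehicle replicate 3 it was Insig1 at 20.5 FPKM (14.3 to 15.6). In Vehicle replicate 2 these were Lpcat3 at 9.15 FPKM (14.4 to 16.1), Col1a1, the main collagen of fibroblasts and bone, at 5358 (2228 to 2603), Cd68, a macrophage marker, at 16.2 (69.4 to 81.4) and Egr1 at 8.88 (15.2 to 16.5). With 25HC they were Klc3 in replicate 1 at 2.83 FPKM (1.80 to 2.06), Col1a1 in replicate 4 at 3264 (2696 to 2840) and the mitochondrial share in replicate 4 at 0.889% (1.22% to 1.35%). In all, 9 of the 12 were in Vehicle replicates 2, 3 and 4.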

How the results depend on the processing

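Over all 20 libraries 4 genes were called higher and 1 lower. The counts were 0 and 0 without Vehicle replicates 2, 3 and 4, 2 and 1 with 25HC3S replicate 1 left out as well, 1 and 0 with only the 10 libraries of both groups, 0 and 0 with only 25HC and Vehicle replicates 1 and 5, 12 and 4 with array weights, and 4 and 0 with no filter on low values. Leaving out 1 library gave 1 to 1445 higher and 0 to 1214 lower. Starting without Vehicle replicates 2, 3 and 4, where 0 and 0 were called, array weights gave 10 and 3, no filter gave 2 and 19, and leaving out 1 25HC library gave 0 to 1 higher. All 5 called genes kept their direction in every alternative run. Sqle stayed called in 15 of 21 alternatives, Tmem246 in 12 of 20, Abca1 in 9 of 21 and Srebf2 in 8 of 21. The cause of these shifts was not tested.

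With the replicate number as a block 1 gene was called higher and 0 lower. The deviations of same-numbered 25HC and Vehicle libraries correlated at 0.13, -0.087, 0.032, -0.070 and -0.013. The wide spread of the uneven Vehicle libraries enters these deviations, so low correlations cannot show whether same-numbered samples share an animal or culture.

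Directions that turned were those of genes not called over all libraries. Without Vehicle replicates 2, 3 and 4, also with 25HC3S replicate 1 left out or with only these 2 groups, the differences were 0.247 for Idi1, 0.3135 for Stard4, -0.4086 for Ch25h, 0.025 for Adamts5, -0.1075 for Col10a1 and -0.0637 for Cd68. With array weights they were 0.2055 for Idi1, 0.2641 for Stard4, -0.3048 for Ch25h, 0.0063 for Adamts5 and -0.0988 for Col10a1. Leaving out 1 library gave differences of -0.1331 to 0.0704 for Idi1, -0.0447 to 0.1362 for Msmo1, -0.1239 to 0.0436 for Stard4, -0.0365 to 0.1511 for Lpcat3, -0.069 to 0.2474 for Col1a1 and -0.1121 to 0.4535 for Cd68. The cause was not tested.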
